A study of Homo sapiens with 12 samples.

Results

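The positions described here were those with at least 1 read in every input library of LNCaP-AI cells and with 0 reads in at least 1 of the matching AlkAniline-Seq libraries. They were selected on these counts, so the presence in the input and the zeros in AlkAniline-Seq are a description and were not tested. There were 7480 such positions, called recurrent input positions below, of 842183 in the data (0.888%) and of 643405 with a read in any input library (1.16%). They lay under 3617 of the 18569 Ensembl gene IDs (19.5%).

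LNCaP-AI is a derivative of the LNCaP prostate cancer line that was kept under androgen deprivation, and the labels give androgen deprivation as the treatment of every sample. The cells carried a lentiviral short hairpin RNA as a stable line, either shMETTL1, directed against METTL1, or shscramble, the control hairpin. Each group had 3 replicates, and each replicate had 1 AlkAniline-Seq library and 1 input library, 12 libraries in all. The replicates are numbered samples of 1 line per hairpin, so the p-values measure the spread between these samples. The position tables hold gene IDs and no coordinates, strand or base, so no sequence is shown, and the level of METTL1, whose ID has no symbol here, is not given. Of the prostate luminal markers only KLK2 could be named, as described further on, and none of the basal, neuroendocrine, stromal, endothelial or immune markers could, so the cell type was checked by that gene alone.

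METTL1, with its partner WDR4, methylates guanosine at N7 to form m7G inside RNA. In AlkAniline-Seq the RNA is cut chemically at m7G, and adapters are ligated to the new ends, so that the reads of a modified base start at a single position. The input library stands for the same RNA without that enrichment, and its reads give the ends that were already present in the sample. A position read in every input library is thus one where an RNA end was read at least once in each sample, whether or not METTL1 was silenced. The coverage of a position is the number of reads that span it.

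Input counts summed to between 2783709 and 3258499 per library and AlkAniline-Seq counts to between 1421551 and 2764417. A library of each kind stood apart. The input of shscramble replicate 2 had a read at 72098 positions, where the other inputs had a read at 153839 to 311979. Of the 1046 recurrent input positions at 50 AlkAniline-Seq reads or above in shscramble replicate 2, replicate 1 also read 1045, and of the 467 such positions of replicate 3 it read 467. Over the pairs other than these and those searched from replicate 1 this share was 48.0% to 87.5%. Whether this library holds reads of the other shscramble libraries could not be settled from the files, so the 3 shscramble AlkAniline-Seq libraries may not be separate samples, and values of that group carry this limit. Several of the results that rest on the shscramble replicate 2 input are given with and without it.

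The recurrent input positions were not positions without AlkAniline-Seq reads. Only 225 of them (3.01%) had 0 reads in all 6 AlkAniline-Seq libraries, and 2550 (34.1%) had 0 reads in a single library. Between these, 1867 positions had 0 reads in 2 libraries, 1419 in 3, 928 in 4 and 491 in 5. The label of these positions as showing fragmentation without m7G cleavage therefore held literally for 225 positions at most, and they are named here by their rule. Together with 5336 positions read in all 12 libraries they made up the 12816 positions read in every input, of which they were 58.4%.

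Positions that recurred in more inputs were also read in more AlkAniline-Seq libraries. Of the positions read in exactly 1 input, 19.7% had an AlkAniline-Seq read in any library, and the share was 45.5%, 65.1%, 80.4% and 91.6% for 2, 3, 4 and 5 inputs and 98.2% for all 6. The share read in all 6 AlkAniline-Seq libraries went from 0.016% at 1 input to 9.21% at 5 and 41.6% at 6. The tables list only positions with a read in some library, and both kinds of library draw on the same transcripts, so these shares are a description.

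**Figure D1:**
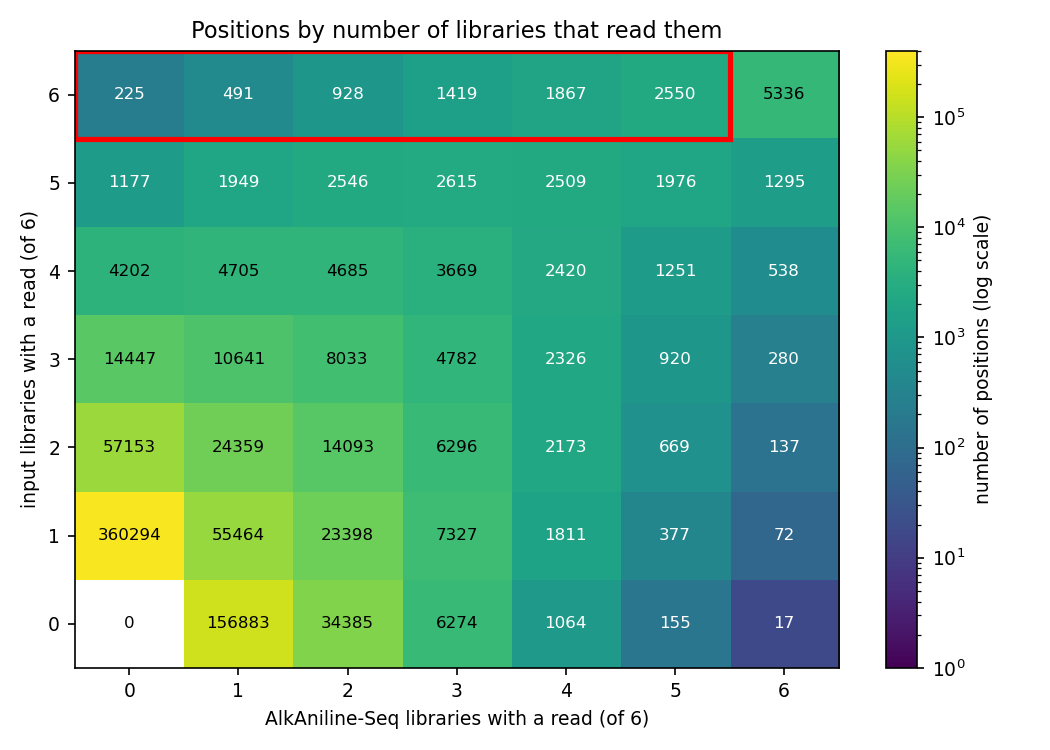
Number of positions by how many of the 6 AlkAniline-Seq libraries (horizontal axis) and how many of the 6 input libraries (vertical axis) had a read there, with a log colour scale; the red frame holds the 7480 recurrent input positions. Within the frame the number falls from 2550 positions read in 5 AlkAniline-Seq libraries to 225 read in none, and 5336 positions beside it were read in all 12 libraries.

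The number of AlkAniline-Seq zeros went with the depth of the position. In the inputs other than shscramble replicate 2, library medians were 28 to 33.5 reads at positions with 1 zero, 14 to 19 at positions with 3 and 8 to 9 at positions with 6, against 63 to 73 at the positions read in all 12 libraries. Median AlkAniline-Seq coverage was 82 to 159 at positions with 1 zero and 1 to 10 at positions with 6, against 218 to 446.5 at positions read in all 12 libraries. Positions with many zeros were therefore thinly covered, and the part of depth in the zeros was not tested.

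Coverage nevertheless reached most of the recurrent input positions. AlkAniline-Seq coverage was above 0 in all 6 libraries at 5431 of them (72.6%) and at least 20 in all 6 at 2988, and 21 had no coverage in any library. Of the 225 positions at 0 in every AlkAniline-Seq library, 31 had coverage of at least 20 in all 6, where a count of 0 still allows a fraction of up to 15% of the covering reads. In CPM, the count scaled to the library total, 0 reads allow a level of up to 1.085 to 2.11 in these libraries, taking 3 counts as the limit and counting error only.

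The zeros were spread unevenly over the libraries. The recurrent input positions had 0 reads at 21.4%, 34.7% and 48.9% in shscramble replicates 1, 2 and 3 and at 41.2%, 52.4% and 42.8% in shMETTL1 replicates 1, 2 and 3. The AlkAniline-Seq libraries read 166443, 116013 and 86641 positions in shscramble and 114828, 88115 and 97954 in shMETTL1, so the library with the most positions read had the fewest zeros. Between 18.9% and 24.6% of the zeros had no coverage at the position and 45.2% to 58.9% had coverage of 20 or more. Of the 7480 positions, 135 were read in all 3 shscramble and in none of the 3 shMETTL1 AlkAniline-Seq libraries, and 58 had the opposite pattern. Both counts come from the values that chose the positions and were not tested. The same counts over all positions are not given, so no excess is read from them. The 135 also carry the limit that the shscramble AlkAniline-Seq libraries may not be separate samples.

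**Figure D2:**
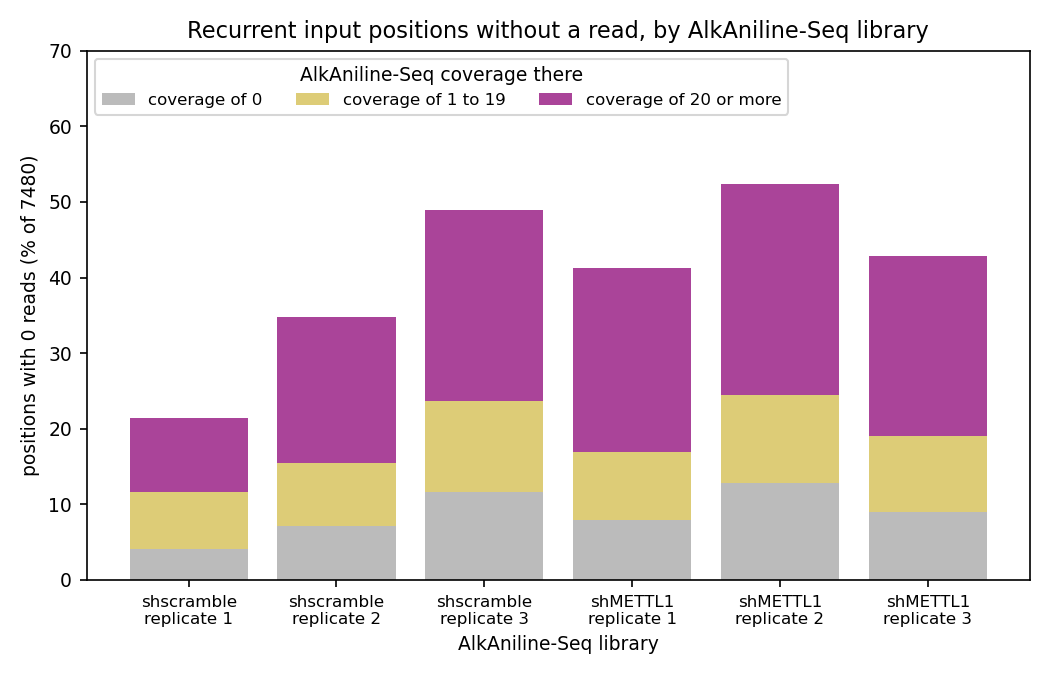
Percent of the 7480 recurrent input positions with 0 reads (vertical axis) in each of the 6 AlkAniline-Seq libraries (horizontal axis), split by the AlkAniline-Seq coverage at the same position. The bars run from 21.4% in shscramble replicate 1 to 52.4% in shMETTL1 replicate 2, and in every library the part with coverage of 20 or more is larger than the part with none.

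Where both kinds of library covered a recurrent input position by at least 20 reads, the fraction of covering reads that ended there was lower in AlkAniline-Seq than in the input. In shscramble replicates 1, 2 and 3 the median AlkAniline-Seq fraction was 5.63%, 2.22% and 0.793%, and the median input fraction at the same positions was 11.4%, 2.999% and 10.2%. In shMETTL1 replicates 1, 2 and 3 the AlkAniline-Seq medians were 1.28%, 0.267% and 0.901% and the input medians 15.1%, 11.5% and 10.8%. The AlkAniline-Seq fraction was the lower one at 59.7% to 78.3% of the positions in the 6 libraries. At the positions read in all 12 libraries it was the lower one at 48.3% to 68.2%, and shscramble replicate 2 was the single library where its median was above the input median, at 12.6% against 11.4%. The zeros that chose the positions enter these fractions, so they carry no test.

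The edge of the selection was soft on both sides. Of the recurrent input positions, 3958 (52.9%) had a lowest input count of 1, with a median of 128 input reads summed over the 6 libraries. Just outside lay 14067 positions read in exactly 5 inputs, with a median sum of 85, and 12772 of these had an AlkAniline-Seq zero. Of the 14067, 7583 (53.9%) lacked the read in shscramble replicate 2, and 441 to 1688 lacked it in each of the others. The same rule chose 13881 positions without shscramble replicate 2. On the AlkAniline-Seq side, the 2550 positions with 1 zero had a median of 125 reads summed over the libraries, against 174 at the 1497 positions just outside, whose lowest count was 1.

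Summed over the 6 inputs, a recurrent input position had 7 to 2009 reads with a median of 175, and its AlkAniline-Seq reads summed to a median of 57 and at most 1454. The median input count was 21, 3 and 20 in shscramble replicates 1, 2 and 3 and 22, 20 and 19 in shMETTL1 replicates 1, 2 and 3. Shscramble replicate 2 was low at most positions and very high at some. It had a single read at 35.1% of the positions, against 4.56% to 9.84% in the other inputs, and the lowest count, alone or tied, at 55.8%. It also had the highest CPM of the 6 inputs at 23.6% of the positions and a 90th percentile of 221 reads, against 78.1 to 103 in the others.

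The ranking of the recurrent input positions differed between libraries accordingly. Across these positions, Spearman's rho between the counts of 2 inputs was 0.31 to 0.46 over the 10 pairs without shscramble replicate 2 and 0.049 to 0.084 over the 5 pairs with it. At the positions read in all 12 libraries it was 0.71 to 0.77 and 0.45 to 0.47. These correlations run across positions, many of which share a transcript, and are given as a description.

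**Figure D3:**
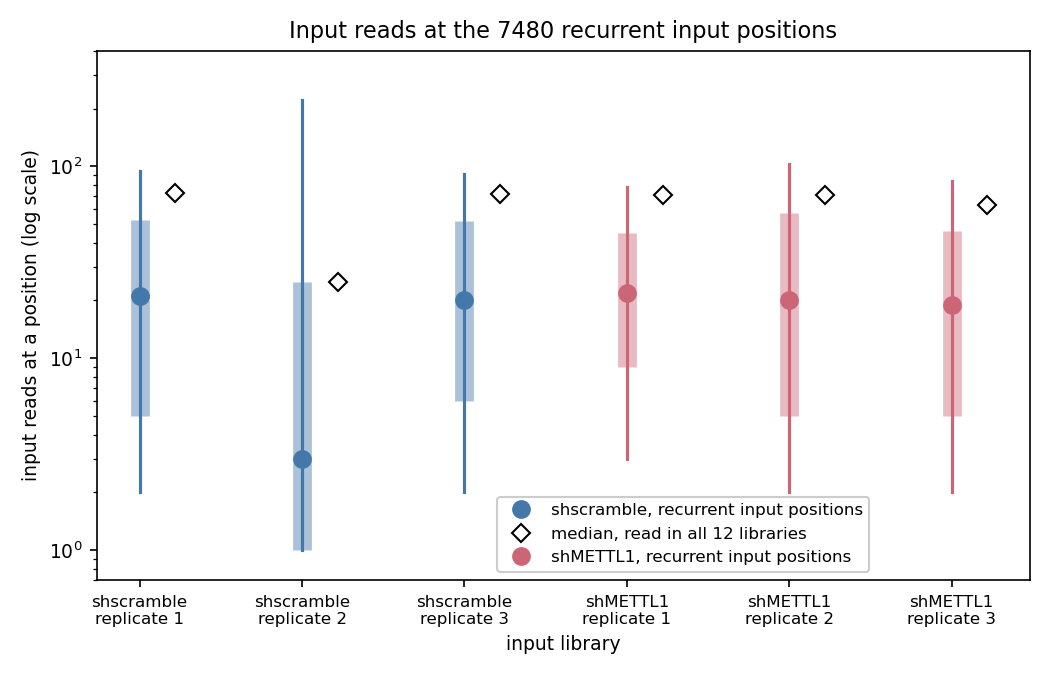
Input reads at the 7480 recurrent input positions (vertical axis, log scale) in each input library (horizontal axis): circles are medians, thick bars the 25th to 75th percentiles, thin lines the 10th to 90th, and open diamonds the median at the 5336 positions read in all 12 libraries. The median of shscramble replicate 2 is 3, that of the other 5 libraries is 19 to 22, and shscramble replicate 2 has the highest 90th percentile.

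The position with the highest mean input CPM had 171, 1171 and 160 input reads in shscramble replicates 1, 2 and 3 and 89, 175 and 243 in shMETTL1, and its AlkAniline-Seq reads were 40, 32 and 115 against 13, 0 and 219. It entered by the single zero of shMETTL1 replicate 2, where its AlkAniline-Seq coverage was 10. The next had 380, 294 and 181 input reads against 340, 350 and 419 and 87, 132 and 0 AlkAniline-Seq reads against 73, 115 and 82, so its input groups overlapped. Among the 225 positions at 0 in every AlkAniline-Seq library, the one with the highest mean input CPM had 88, 202 and 31 input reads against 1, 34 and 3, at an AlkAniline-Seq coverage of 113, 96 and 86 against 68, 5 and 10. Another of them had 49, 5 and 42 input reads against 53, 76 and 91, and a coverage of 41, 207 and 77 against 270, 5 and 187.

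The recurrent input positions held 9.03%, 12.96% and 8.92% of the input reads in shscramble replicates 1, 2 and 3 and 7.82%, 9.20% and 8.85% in shMETTL1 replicates 1, 2 and 3. The shscramble mean was 10.3% ± 2.30 (SD, n = 3) and the shMETTL1 mean 8.62% ± 0.720 (SD, n = 3), a difference within the spread of the replicates (exact two-sided permutation test, p = 0.4, where 3 against 3 cannot go below 0.1). With shscramble replicate 2 left out of the rule and the means, the shares were 13.33% and 12.78% (exact permutation test, p = 0.8). The median fraction of covering input reads that ended at the position averaged 25.2% ± 7.10 (SD, n = 3) over the shscramble libraries and 22.8% ± 1.20 (SD, n = 3) over those of shMETTL1, also within the spread (exact permutation test, p = 0.9). Without shscramble replicate 2 the order turned, and the median was 1.24 percentage points higher in shMETTL1 (exact permutation test, p = 0.3). It turned also where input coverage was at least 20 in all 6 files, from 7.14% with shscramble to 10.4% with shMETTL1 (p = 0.1 in the exact permutation test, the smallest possible). Of the AlkAniline-Seq reads they held 5.18% ± 0.405 (SD, n = 3) with shscramble against 4.76% ± 0.234 (SD, n = 3) with shMETTL1, a value with no test because the zeros chose the positions. Without shscramble replicate 1 these shares were 5.58% and 5.22%. Their median AlkAniline-Seq coverage was 55, 84 and 47 with shscramble and 86, 103 and 85 with shMETTL1, in raw reads that followed the library totals. Divided by those totals in units of 1e6 counts it was 31.8, 32 and 33.1 against 34.2, 37.3 and 34.4, again with no test because coverage includes the counts that chose the positions.

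Between shMETTL1 and shscramble no recurrent input position was called in the input by edgeR, and DESeq2 called a few. The counts of all positions were fitted with edgeR's quasi-likelihood test, in which 20840 positions passed the filter on low counts, among them 5662 recurrent input positions. None passed a Benjamini-Hochberg adjusted p of 0.05, as none did among all positions (0% called), and the lowest adjusted p was 0.68. At an unadjusted p under 0.05 stood 257 of the 5662 (4.54%), against 5.61% of all positions tested, a share near the background. With DESeq2 19 passed the adjusted threshold, 1 higher and 18 lower in shMETTL1, where 0.465% of all positions were called. With edgeR, leaving out shscramble replicate 1 gave 7 calls (0.11% of those tested, against 0.373% of all positions) and leaving out replicate 3 gave 18 (0.286% against 0.47%), all lower in shMETTL1. Leaving out any of the other 4 inputs gave 0. In simulated counts 2 of 34 tested positions with an 8-fold and 1 of 30 with a 16-fold change were recovered, so single positions could be called only rarely at this depth and spread.

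The balance between lower and higher positions changed with 1 library and with the scaling, and its cause was not tested. Of the 257 positions, 205 were lower and 52 higher in shMETTL1, and at 202 of the 205 the highest CPM of the 6 inputs was that of shscramble replicate 2. Median counts at these 205 positions were 34, 269 and 32 for the shscramble libraries against 15, 6 and 7 for shMETTL1. At the 52 higher positions the medians were 3, 1.5 and 2 against 45.5, 93 and 64. Without shscramble replicate 2, 171 positions stood at an unadjusted p under 0.05, 56 lower and 115 higher. Scaled by library size alone in place of TMM, 65 were lower and 57 higher. The median log2 difference was -0.02 over the recurrent input positions and 0.13 over all positions with TMM scaling, and 0.17 and 0.31 with library size.

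**Figure D4:**
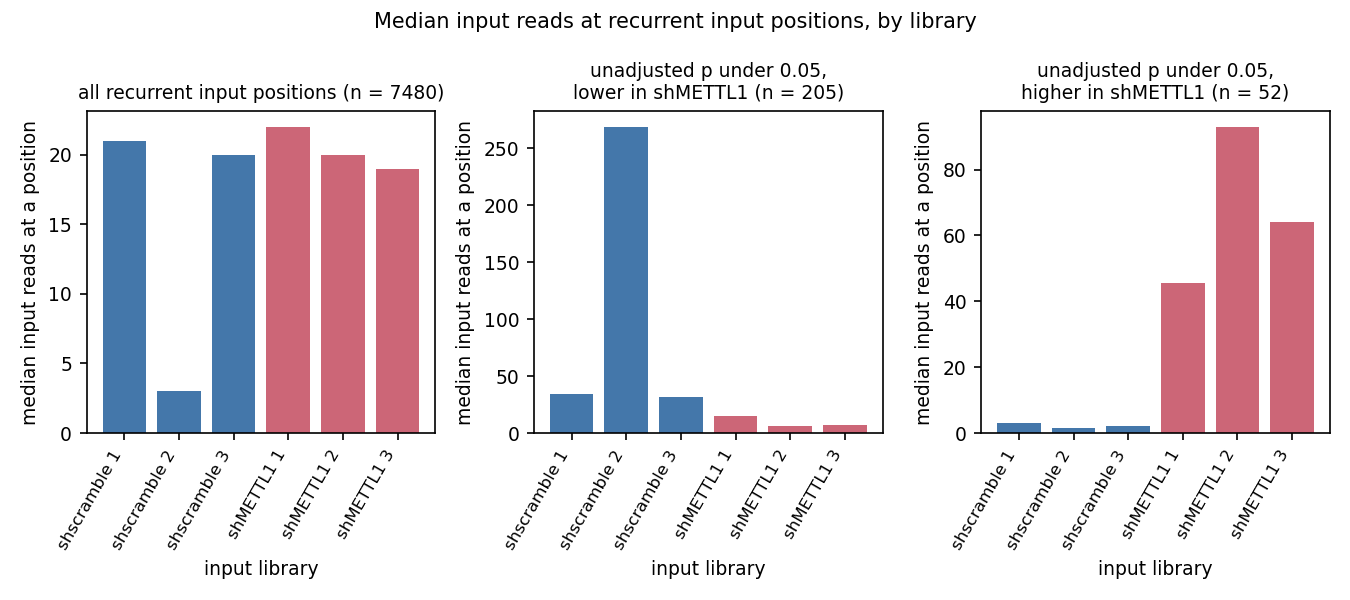
Median input reads (vertical axis) per input library (horizontal axis, shscramble blue, shMETTL1 red) over all 7480 recurrent input positions, over the 205 at an unadjusted p under 0.05 and lower in shMETTL1, and over the 52 that were higher. In the middle panel shscramble replicate 2 has a median of 269 and the other shscramble libraries 34 and 32; these positions were picked by the test, so the panels describe them and test nothing.

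The position with the smallest p among those lower in shMETTL1 lay under ENSG00000106537, an ID that no table used here pairs with a symbol. It had 40, 283 and 35 input reads in shscramble and 2, 1 and 1 in shMETTL1, a log2 difference of -6.86 (standard error 1.80, edgeR adjusted p = 0.68). The next lay under ENSG00000158156, with 54, 763 and 52 reads against 8, 1 and 29 and a log2 difference of -4.98 (standard error 1.34). The groups did not overlap at either position. The log2 differences were -4.62 and -1.92 when shscramble replicate 2 was left out. Among those higher in shMETTL1, the first lay under ENSG00000082641, with 1, 1 and 2 reads against 81, 154 and 136 and a log2 difference of 6.27 (standard error 1.80, edgeR adjusted p = 0.68). ENSG00000088448 followed with 4, 1 and 1 reads against 45, 101 and 96 and a log2 difference of 5.17 (standard error 1.84). At these 2 positions the 3 shMETTL1 libraries were all far above the 3 shscramble libraries in counts, including shscramble replicate 2. Input coverage differed too, at 53, 1 and 3 against 125, 161 and 154 at the first. At the second it was 5, 2 and 1 against 45, 104 and 167. The folds there and at the ENSG00000106537 position are open, because the lower group held only 1 to 4 reads and the rule asks for at least 1. Over the 7480 recurrent input positions, raw input counts of the groups did not overlap at 558 with shMETTL1 higher and 190 with it lower. The same count over all positions is not given, so an absence of overlap at single positions, here and below, is a description. These raw counts were not scaled, and shscramble replicate 2 had the lowest input count, alone or tied, at 55.8% of the positions. No direction is therefore read from the 558 and the 190.

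In the AlkAniline-Seq libraries 1958 of the recurrent input positions passed the filter among 13973 positions, and 0 of them and 0 of all positions (0% called) passed the adjusted threshold in edgeR. At an unadjusted p under 0.05 stood 177 of them (9.04%), against 8.19% of all positions, and DESeq2 called 122 (6.23%, against 5.1% of all). The zeros of these libraries chose the positions, so nothing is read from these counts. The study's thresholds were a change above 1.5-fold in the fold over input with a p under 0.05. By them 166 of 7255 recurrent input positions with a fold were called (2.29%), 120 lower and 46 higher in shMETTL1. Of all 404685 positions with a fold 5051 were called (1.25%). The recurrent input positions were 3.29% of the positions called in this way. The zeros that chose them enter this fold, so their higher share was not tested and nothing is read from it. Of the 5051, 4730 (93.6%) had 0 input reads in at least 1 of the 6 inputs, against 96.9% of all positions with a fold.

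Recurrent input positions followed the depth of the transcript. Gene IDs with one had a median of 1676 input reads at 85 listed positions, and gene IDs without one had 115 reads at 22. In the tenth of gene IDs with the most input reads, 82.9% held a recurrent input position, and these IDs held 64.6% of them all. One position was found under 2106 gene IDs, 2 to 4 under 1229, 5 to 9 under 225 and 10 or more under 57, which together held 827. The most under a single ID were 35, among 368 positions listed there. Some rows carried the same values under several gene IDs: 734 of the 7480 rows equalled a row of another ID, and 7092 sets of values were distinct.

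Summed over each gene ID, the input again gave no call. The fit tested 11740 gene IDs, 3589 of them with a recurrent input position, and 0 passed the adjusted threshold (0% of all gene IDs) in edgeR. At an unadjusted p under 0.05 stood 288 of the 3589 (8.03%), against 6.26% of all gene IDs, with 256 lower and 32 higher in shMETTL1. Without shscramble replicate 2 the split was 187 lower and 134 higher, and with scaling by library size 102 lower and 92 higher. Leaving out any 1 input library gave 0 calls, and without the filter on low counts 45 were called (1.24%, against 0.53% of all gene IDs), all lower. DESeq2 called 5, where it called 0.298% of all gene IDs. In simulated counts 27 of 39 tested genes with a 16-fold change and 16 of 46 with an 8-fold change were recovered. Of those with a 4-fold change 4 of 49 were, and with a 2-fold change 0 of 47, so smaller changes of a gene could rarely be called.

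Gene symbols were available for few IDs. The study lists by symbol genes changed in both mRNA and m7G, and 115 of its 238 symbols were tied here to exactly 1 position by the value of the fold over input. The study picked these genes for both changes in METTL1 knockdown against control LNCaP-AI cells, with the m7G change from these samples. Neither the input levels nor the positions of the named genes are therefore independent evidence of any direction. Of the 115, 63 held 178 recurrent input positions, and 27 of the 63 held 1. Of the 178, 77 had 0 reads in a single AlkAniline-Seq library and 3 in all 6. In the input fit 147 were tested, 69 below 0 and 78 above 0 in log2 difference, with a median of 0.22. Among these 147, 12 stood at an unadjusted p under 0.05 in edgeR, and all 12 were lower in shMETTL1. At this threshold stood 4.54% of all tested recurrent input positions and 5.61% of all positions. Of those 257 recurrent input positions 205 were lower, and at 202 of them shscramble replicate 2 had the highest CPM. The direction of the 12 is thus given as a description.

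**Figure D5:**
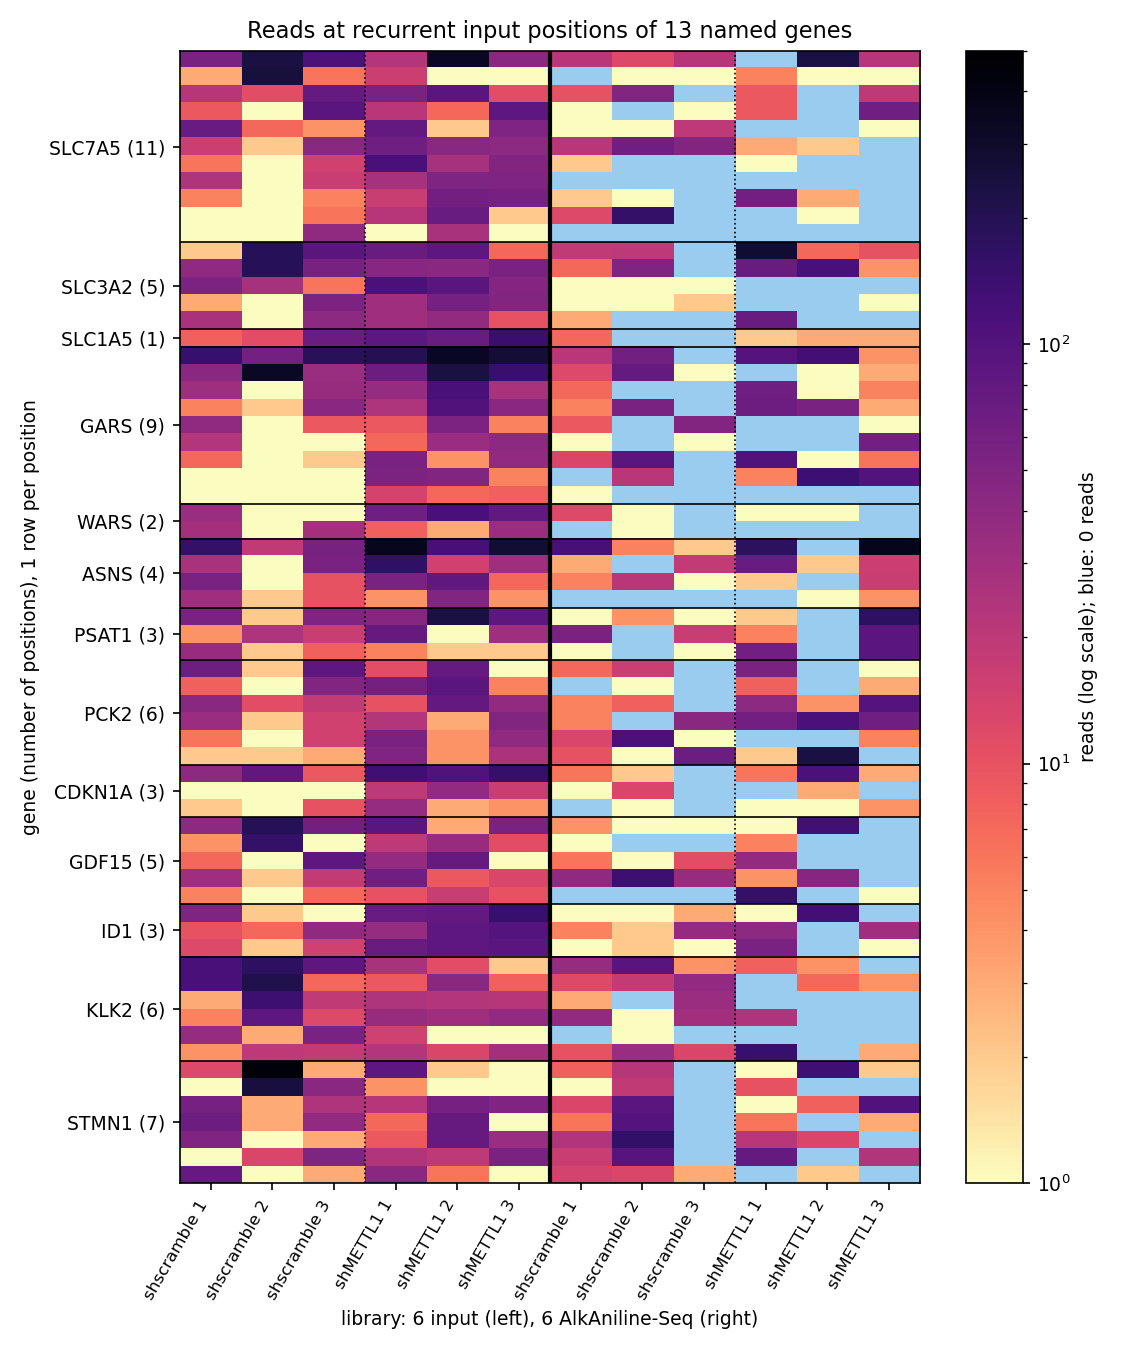
Reads (log colour scale, blue for 0 reads) at the recurrent input positions of 13 named genes, 1 row per position grouped by gene (vertical axis), in the 6 input libraries on the left and the 6 AlkAniline-Seq libraries on the right. Every input cell holds at least 1 read by the rule, single reads are frequent in the input of shscramble replicate 2, and the AlkAniline-Seq zeros fall in different libraries from row to row.

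Genes of the ATF4 response, which cells switch on when amino acids run short or the endoplasmic reticulum is stressed, made up the largest named group. Of the 20 genes of the list 10 could be named, and 8 of these held 41 recurrent input positions. Of the 32 tested, 26 were above 0 and 6 below 0 in log2 difference, with a median of 1.20, against 0.13 over all positions tested. Over all 5662 tested recurrent input positions 2789 were above 0. Positions of 1 transcript are not separate observations, and 8 of the 32 lay in SLC7A5, so the tally is a description. None of the 32 stood at an unadjusted p under 0.05 in edgeR. Without shscramble replicate 2, 31 of 38 were above 0 with a median of 0.89. As fractions of the covering reads, 18 of 32 were above 0 with a median of 0.23.

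SLC7A5, the large neutral amino acid transporter, held 11 of them among 408 listed positions. They carried 1.14% of the gene's 235937 input reads, and 13 other positions of the gene were read in all 12 libraries. Of its 8 tested positions 7 were above 0, between -0.45 and 3.57 in log2 difference, while the gene as a whole was at -0.41 (standard error 0.42). The position with the most input reads had 56, 237 and 110 reads in shscramble and 23, 336 and 43 in shMETTL1, out of a coverage of 20540 to 66981. The groups overlapped there. A further position had 25, 1 and 17 input reads against 28, 52 and 50 and 0 reads in all 6 AlkAniline-Seq libraries, whose coverage was 5, 4 and 4 in shscramble and 159, 254 and 187 in shMETTL1. At that position the raw shMETTL1 input counts were all above the shscramble counts, at the closest 28 against 25. The log2 difference, from scaled counts, was 1.63 (standard error 1.74). SLC3A2, the heavy chain that brings SLC7A5 to the cell surface, held 5, and SLC1A5, a glutamine transporter, held 1.

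The aminoacyl-tRNA synthetases GARS, WARS and SARS charge tRNA with glycine, tryptophan and serine. GARS held 9 recurrent input positions, which carried 26.7% of its input reads. The first had 149, 60 and 187 input reads in shscramble and 201, 333 and 267 in shMETTL1, and 21, 63 and 0 against 98, 128 and 4 AlkAniline-Seq reads. In raw counts all 3 shMETTL1 inputs were above all 3 shscramble inputs there, at the closest 201 against 187. The log2 difference, from scaled counts, was 0.94 (standard error 0.94), and separation after scaling was not tested. Over the gene, GARS averaged 423 ± 90.4 CPM (SD, n = 3) with shscramble against 758 ± 92.5 (SD, n = 3) with shMETTL1, and had a log2 difference of 0.84 (standard error 0.32, edgeR adjusted p = 0.77). WARS held 2 and was at a gene log2 difference of 1.09 (standard error 0.46), and SARS, outside the list, held 1 and was at 1.11 (standard error 0.39).

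ASNS makes asparagine, PSAT1 acts in serine synthesis, and PCK2 is the mitochondrial phosphoenolpyruvate carboxykinase. The 4 recurrent input positions of ASNS were all above 0, from 0.33 to 1.69. The first had 156, 19 and 57 input reads against 349, 121 and 274, and 122, 5 and 2 against 180, 0 and 358 AlkAniline-Seq reads. Its input groups overlapped, since shscramble replicate 1 was above shMETTL1 replicate 2. PSAT1 held 3, and as a gene was at 151, 31.9 and 108 CPM in shscramble and 300.4, 279 and 383 in shMETTL1, a log2 difference of 1.73 (standard error 0.52, edgeR adjusted p = 0.75). Without shscramble replicate 2 the PSAT1 difference was 1.31. PCK2 held 6, of which 4 of the 5 tested were above 0, while the gene was at -0.56 (standard error 0.36).

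KLK2, an androgen-regulated kallikrein of prostate luminal cells, was the gene ID lower in shMETTL1 with the smallest p among those holding a recurrent input position. Its input was 1408, 1740 and 807 CPM in shscramble and 459.8, 442 and 336 in shMETTL1, with no overlap and a log2 difference of -1.68 (standard error 0.34, unadjusted p = 0.00012 and adjusted p = 0.75 from edgeR). Without the filter on low counts the edgeR adjusted p was 0.00069 and with the replicate number as a block 0.049, so KLK2 was called in both, and over the other alternatives it was 0.14 to 1, with DESeq2 at 0.165. The gene was at -1.43 without shscramble replicate 2. It held 6 recurrent input positions, 5 of them below 0. The first had 114, 175 and 84 input reads against 27, 11 and 2, a log2 difference of -3.54 (standard error 1.505, edgeR adjusted p = 0.77), and its AlkAniline-Seq reads were 36, 93 and 4 against 8, 4 and 0. The other positions were less even. The fourth by input level had 5, 87 and 12 input reads against 35, 32 and 39, so that only shscramble replicate 2 was above the shMETTL1 libraries. Without shscramble replicate 2, 3 of the 6 were below 0 and the median went from -2.09 to -0.26. As fractions of the coverage 3 were below 0 and the median was 0.11. The other named gene of the androgen and prostate list, NDRG1, held none.

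CDKN1A, the p53-induced inhibitor of cyclin-dependent kinases, and GDF15, a secreted stress cytokine, held 3 and 5 positions, and were the named p53 targets with any. CDKN1A averaged 66.6 ± 15.1 CPM (SD, n = 3) with shscramble against 215 ± 34.0 (SD, n = 3) with shMETTL1, and had a log2 difference of 1.69 (standard error 0.48, edgeR adjusted p = 0.75). One of its positions had a single input read in each shscramble library and 20, 39 and 17 in shMETTL1, at a coverage of 54 to 457 and 138 to 236. Its log2 difference was 4.30 (standard error 2.14, adjusted p = 0.90), and the fold is open because each shscramble count was 1. GDF15 positions lay on both sides, 2 of 4 tested below 0, with the gene at 0.19 (standard error 0.33). ID1, an inhibitor of helix-loop-helix transcription factors, held 3, all above 0 (1.895 to 3.06) here and in each of the 13 alternatives run on them. Its gene value was 1.69 (standard error 0.51, edgeR adjusted p = 0.75). Without shscramble replicate 2 the gene values were 1.52 for CDKN1A and 1.53 for ID1.

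STMN1, which destabilizes microtubules, held 7 and ANLN, a scaffold of the cleavage furrow, held 1, while the other named mitosis gene, PRC1, held none. The position of STMN1 with the most input reads had 12, 451 and 3 in shscramble and 87, 2 and 1 in shMETTL1, so that its log2 difference of -3.00 (standard error 1.59) stood beside a shscramble replicate 2 count far above the other 5. XBP1, a transcription factor of the unfolded protein response and the single named gene of the ER chaperone list, held 2. The named genes of cholesterol synthesis, HMGCS1, SQLE, MSMO1 and NSDHL, held none. No gene of the lists for ribosomal proteins, translation factors, mitochondrially encoded genes, glycolysis, heat shock chaperones, cytoskeleton, small RNA hosts, nuclear long noncoding RNAs, histones or m7G and cap factors could be named.

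The 12 positions of named genes at an unadjusted p under 0.05 lay in 10 genes. SRM, spermidine synthase of the polyamine pathway, held 2, with 7, 844 and 58 input reads against 21, 2 and 35 at the first and 83, 393 and 47 against 7, 9 and 83 at the second. Their log2 differences were -4.49 (standard error 1.36, edgeR adjusted p = 0.68) and -2.79 (standard error 1.31, adjusted p = 0.86). The groups overlapped at both, and without shscramble replicate 2 the values were -0.61 and -0.84. A further position of SRM was at 3.06 (standard error 1.73) with 17, 2 and 3 reads against 83, 40 and 65, so positions of 1 transcript lay on opposite sides of 0.

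PRKAR1A, a regulatory subunit of protein kinase A, also held 2, at -2.86 and -3.83, beside 3 others of which 2 were above 0. PPAP2A, SESN3, CHID1, MLST8, ECI1, CCDC25 and KLK2 held 1 each, between -3.50 and -4.33 in log2 difference. The PRKAR1A positions were at -1.94 and -1.32 with shscramble replicate 2 left out. SESN3 was then at -0.45, CHID1 at -0.68, PPAP2A at -1.49, ECI1 at -1.67, CCDC25 at -1.96, MLST8 at -2.28 and KLK2 at -2.83, and of these 9 only KLK2 still had an unadjusted p under 0.05 in edgeR. PPA1, an inorganic pyrophosphatase, held the last. Of the 12 it had the smallest standard error, with 242, 244 and 361 input reads in shscramble and 97, 78 and 52 in shMETTL1, no overlap and a log2 difference of -2.09 (standard error 0.98, edgeR adjusted p = 0.86). The reads there made up nearly all of the coverage, which was 246, 244 and 362 in shscramble and 97, 78 and 52 in shMETTL1, so the difference in the fraction was 0.0091 on the log2 scale. The count difference was -1.92 without shscramble replicate 2. In AlkAniline-Seq PPA1 had 16, 19 and 44 reads against 1, 2 and 0, at a coverage of 23, 19 and 47 against 1, 3 and 0. This position carried 66.0% of the gene's input reads.

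Of the 115 positions through which the named genes were tied, 3 were themselves recurrent input positions, 2 were read in all 12 libraries and 34 were read in no input. In SLC7A5 this position had 21, 64 and 48 AlkAniline-Seq reads in shscramble and 3, 2 and 0 in shMETTL1, and 16, 2 and 44 input reads against 65, 44 and 42. Its input coverage was 127, 4 and 195 against 121, 227 and 83, so that the input fraction in shscramble replicate 2 rested on 4 reads. PTMA, which encodes prothymosin alpha, had 23, 63 and 28 AlkAniline-Seq reads against 0, 0 and 3, and 17, 63 and 13 input reads against 2, 13 and 11. TMEM184B had 30, 10 and 124 AlkAniline-Seq reads against 0, 5 and 1, and 94, 3 and 26 input reads against 55, 110 and 178. In the input alone the log2 differences at these positions were 1.30 (standard error 1.63), -2.25 (standard error 1.87) and 1.55 (standard error 1.43), none at an unadjusted p under 0.05. Only the PTMA position had fewer input reads in shMETTL1 by this estimate, and its input groups overlapped no further than 1 pair of equal counts of 13.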

How the data were processed

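AlkAniline-Seq and input libraries of LNCaP-AI cells were analysed, 3 replicates per hairpin. The authors deposited, for each position, the count of reads at it, the coverage (a count of reads over it), a fraction (count over coverage) and a ratio (fold of the fraction over the input's). The submitters' notes list bedtools 2.24, Bowtie2 2.2.4 and cutadapt 1.9.1 among the tools used, and hg19 as the genome build. Read filters were not given in the sources used here, nor the annotation. Positions were matched between files by row order. Recurrent input positions were taken at 1 or more input reads in all 6 files and 0 reads in at least 1 AlkAniline-Seq library. The positions, gene lists and rule for named genes were chosen with earlier results of these data known.

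The quasi-likelihood test of edgeR 4.0.16 (R 4.3.3) was run on the counts (scaling by TMM, minimum count 10, minimum total 15, Benjamini-Hochberg over all positions or gene IDs). DESeq2 1.42.0, limma 3.58.1 (pseudocount 0.01 on fractions) and the methods' t-test on log2(CPM + 1) were alternatives. Standard errors were derived from the F statistic and the fold change. Single values were compared with an exact two-sided permutation test. The fits were tested on simulated data. Input counts summed to 2783709 to 3258499 and AlkAniline-Seq counts to 1421551 to 2764417 per library; intervals and limits cover counting error only. The coefficient of variation between replicates was 1.25 for input positions, 0.81 for genes and 1.42 for AlkAniline-Seq positions. Gene IDs matched to the reference table numbered 0 of 18569, so symbols came only from folds of the study's list of genes, found at a relative tolerance of 2e-08. The named genes were the leaders by number of positions, input level and p, and up to 4 genes per list; IDs without a symbol were mostly left unnamed. Correlations between the deviations of same-numbered replicates were small (-0.025 to 0.059), so the numbers were not taken as pairs. In AlkAniline-Seq the best partner of each replicate was nevertheless the one of the same number, so a pairing is not excluded. A fit with the replicate number as a block was an alternative.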

Additional observations from a re-analysis of the deposited data

How the results depend on the processing

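Calls stayed at 0 or few under most settings, and the exceptions were as follows. Recurrent input positions called in the input numbered 19 with DESeq2 (0.336%, against 0.465% of all positions), against 0 with edgeR. With the methods' t-test they numbered 6, all higher in shMETTL1 (0.106%, against 0.182% of all positions). Leaving out 1 library gave 0 to 18, with 7 without shscramble replicate 1 and 18 without shscramble replicate 3, all lower. Gene IDs with such a position numbered 5 with DESeq2 (0.139%, against 0.298% of all gene IDs) and 0 when any library was left out. With no filter on low counts they numbered 45, all lower (1.24% against 0.53%). With the replicate number as a block they numbered 2, both lower (0.0557% against 0.017%), 1 of them KLK2, also called with no filter. In AlkAniline-Seq the calls numbered 122 with DESeq2 (6.23%, against 5.1% of all positions) and 22 with the methods' t-test (1.12% against 1.24%). They numbered 0 to 102 when 1 library was left out. Of these fits, that without shscramble replicate 3 gave 102 (3.24%, where 19% of all positions were called). Without shMETTL1 replicate 1 there were 7 (0.226% against 0.0806%), and at most 1 without any other. With the replicate block no recurrent input position was called in either kind of library (6 of all positions were, in each), and the differences in shares kept their values (-1.68 for input reads and -2.35 for the median fraction, in percentage points). The number of recurrent input positions was 3522 with at least 2 input reads and 1575 with at least 5, 12816 without the AlkAniline-Seq condition, 225 with 0 in all 6 AlkAniline-Seq libraries, 7092 with shared rows counted once, and 7453 to 13881 over 5 files. The difference in the share of input reads ranged from -2.67 to -0.55 percentage points when 1 library was left out, the last without shscramble replicate 2. That in the median input fraction ranged from -6.19 to 1.24, turning without shscramble replicate 2 (p = 0.3, exact permutation test), and was 3.25 at an input coverage of at least 20 in all 6 files (p = 0.1, exact permutation test). That in the share of AlkAniline-Seq reads ranged from -0.80, without shscramble replicate 3, to -0.24, and was -3.72 without the AlkAniline-Seq condition. The PPA1 position was at 0.0091 as a log2 fraction (limma) and below 0 otherwise. The cause of these changes was not tested. Depth was low, at a median of 19 to 22 input reads per position and 3 in shscramble replicate 2.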
